A study of Mus musculus with 12 samples.

Results

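The non-coding transcripts of 10 circadian clock genes were followed in the hippocampus and cerebral cortex of wild-type (WT) mice and of 5×FAD mice, a model of Alzheimer's disease. The genes were Clock, Arntl, Per1, Per2, Per3, Cry1, Cry2, Nr1d1, Nr1d2 and Dbp, and every row of the deposited transcript count table that the GENCODE M21 gene models assign to one of them was taken. Of the 10 genes, 9 had a row, and together they had 17 of the 48033 rows of the table. Only 222 rows of the whole table were protein-coding transcripts and none of the 17 was. The values below are therefore counts assigned to retained-intron and processed transcripts and not to the clock mRNAs. Reads on the exons that these rows share with the mRNAs could come from either. No clock gene passed the test in any comparison of genotype or region by edgeR, and a single retained-intron row of Per3 was about 3 times as high in the hippocampus as in the cortex of 5×FAD mice without passing the adjusted threshold of that test.

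The mammalian clock is a feedback loop of transcription. CLOCK and ARNTL, also called BMAL1, bind DNA as a pair and switch on the Period and Cryptochrome genes, whose proteins gather, return to the nucleus and hold that pair in check. In a second loop the nuclear receptors NR1D1 and NR1D2, also called REV-ERB alpha and beta, repress Arntl, and DBP is an output factor that carries the rhythm to other genes. The loop runs in cells across the brain, including the hippocampus and cortex, and the mRNA of Dbp, Nr1d1 and the Period genes swings strongly over the day. The hour at which the mice were killed and their light cycle are not given in the sources used here, so time of day could be neither matched nor fitted.

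The 12 libraries came from mice of 7 months on the C57BL/6J background, with 3 libraries for each of WT hippocampus, 5×FAD hippocampus, WT cortex and 5×FAD cortex. The 5×FAD line carries mutant human amyloid precursor protein and presenilin transgenes under elements of the neuronal Thy1 gene, and the WT mice were non-transgenic. Both regions were taken from each mouse, by the series description, but whether a library number stands for the same mouse in both regions is not given. The description states 2 females and 1 male in each group, and the counts differed from that: Y-linked transcripts were found in 8 of the 12 libraries, including all 6 of WT, while 5×FAD libraries 1 and 2 of both regions had 0 Y-linked counts and at least 30468 counts of Xist. In the other 8 libraries Xist had at most 25 counts. Genotype and sex can therefore not be told apart in full, and the genotype values of the gene sums are given with and without those 4 libraries. Depth ranged from 3517967 to 5014389 counts per library. Summed markers of the hippocampus lay at 103.9 to 117.7 CPM, the counts of a library scaled to its depth, in WT hippocampus and 25.6 to 36.0 CPM in WT cortex, although 7 of the 10 markers, Prox1 among them, had no row. Almost all counts of the hippocampus markers were from Zbtb20, with 500, 585 and 505 in WT hippocampus and 127, 164 and 90 in WT cortex. Between genotypes the summed marker lists of 4 cell types did not overlap in the hippocampus. There, oligodendrocyte markers (5 of 6 genes with rows) were at 495.9 to 598.8 CPM in 5×FAD and 344.3 to 422.2 CPM in WT, with most of the counts from Cnp. Astrocyte markers (5 of 6) were at 519.3 to 1215.1 CPM in 5×FAD and 1336.0 to 1485.9 CPM in WT. That gap was almost all Slc1a3, with 6712, 6110 and 5908 counts in WT against 2042, 1808 and 4256, and was not seen in Gja1, which ran from 92 to 115 in WT and from 93 to 123 in 5×FAD. Neuron markers (5 of 6) were at 1006.6 to 1228.9 CPM in 5×FAD and 1253.8 to 2295.6 CPM in WT. The WT maximum was that of WT hippocampus 1, where Camk2a reached 5250 counts, against 790 and 699 for libraries 2 and 3. Map2 had fewer counts in 5×FAD (1312 to 1538 against 1900 to 2242), and its groups stayed apart when scaled to depth. Snap25 also had fewer counts (730 to 868 against 879 to 1358), but its groups overlapped when scaled to depth. It had 865 of 3996386 counts in 5×FAD hippocampus 3 and 879 of 4449939 in WT hippocampus 3. Syt1 and Rbfox3 overlapped between genotypes, with Rbfox3 at 34 to 64 for 5×FAD against 29 to 56. Trem2, the 1 microglia marker of 8 with a row, was at 41.0 to 183.2 CPM in 5×FAD and 18.1 to 31.9 CPM in WT. Of these 4 lists, only that of oligodendrocytes did not overlap in the cortex, at 545.7 to 618.3 CPM in 5×FAD and 298.2 to 482.4 CPM in WT. In the cortex Trem2 had 1046, 688 and 87 counts in 5×FAD and 202, 248 and 129 in WT. Library 3, which may be the same mouse in both regions, thus had the lowest Trem2 of the 5×FAD libraries in each. It is also the only 5×FAD library of each region in the fits of libraries with Y-linked transcripts. The part of these shifts in the clock values was not tested. In bulk tissue, fewer cells of a type and less RNA per cell cannot be told apart.

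The rows differed widely in how much of them is intron. Per1 had no row, and its 6 annotated transcripts comprise 5 protein-coding ones and 1 marked for nonsense-mediated decay. Clock and Per3 had 3 rows each, Arntl, Cry1, Cry2 and Dbp had 2 each, and Per2, Nr1d1 and Nr1d2 had 1 each. Between 4.0% of the bases (Arntl ENSMUST00000209495) and 96.3% (Per3 ENSMUST00000138052) lay in an exon of a protein-coding transcript of the gene. Reads on such bases could come from the mRNA as well, so a row with a large coding share is the less certain measure of its own transcript. The genes lie apart from each other in GRCm38, with Clock at chr5:76209868-76304792, Arntl at chr7:113207465-113314126, Per3 at chr4:151003652-151044665, Cry2 at chr2:92403646-92434043, Nr1d1 at chr11:98767932-98775333, Nr1d2 at chr14:18204054-18239127 and Dbp at chr7:45705088-45710203. Rows of the same gene also shared bases. The shorter Dbp row lay wholly within the longer, the Clock rows ENSMUST00000202857 and ENSMUST00000200957 shared 723 bases, and Per3 ENSMUST00000128283 shared 629 bases, or 29.4% of its length, with Per3 ENSMUST00000138584.

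**Figure D1:**
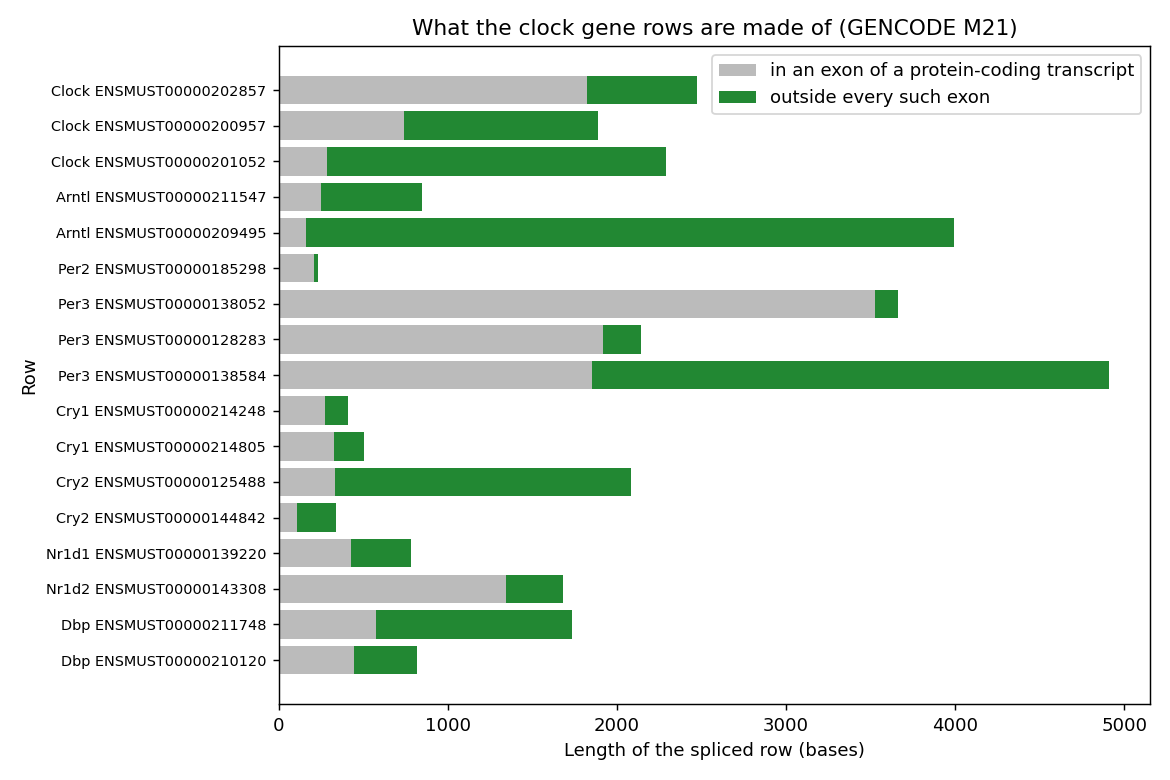
Length in bases of each of the 17 clock gene rows, split into bases that lie in an exon of a protein-coding transcript (grey) and bases outside every such exon (green). Arntl ENSMUST00000209495 is almost all green, with 3835 bases outside, whereas Per3 ENSMUST00000128283 has only 220.

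The boundary between coding exon and intron is what sets these rows apart from the mRNA, and it is shown here for the rows the results turn on. In each sequence, read 5′ to 3′ on the transcript's strand from GENCODE M21 (GRCm38), the 40 lower-case bases are coding exon and the 60 capitals are the adjoining stretch that no protein-coding transcript holds as exon. The capitals follow the exon in all but the Dbp row, where they come before it.
Clock ENSMUST00000202857, chr5:76235706-76235805, minus strand: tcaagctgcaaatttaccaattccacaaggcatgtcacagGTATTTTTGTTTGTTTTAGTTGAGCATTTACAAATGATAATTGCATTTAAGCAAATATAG
Per3 ENSMUST00000128283, chr4:151024350-151024449, minus strand: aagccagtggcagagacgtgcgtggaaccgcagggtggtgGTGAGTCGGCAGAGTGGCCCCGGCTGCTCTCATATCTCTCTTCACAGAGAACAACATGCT
Per3 ENSMUST00000138584, chr4:151012181-151012280, minus strand: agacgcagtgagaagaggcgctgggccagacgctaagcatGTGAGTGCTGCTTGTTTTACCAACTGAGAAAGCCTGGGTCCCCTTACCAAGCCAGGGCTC
Cry2 ENSMUST00000125488, chr2:92426842-92426941, minus strand: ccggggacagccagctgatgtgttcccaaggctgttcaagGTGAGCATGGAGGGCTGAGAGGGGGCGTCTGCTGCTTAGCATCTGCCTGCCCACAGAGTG
Nr1d1 ENSMUST00000139220, chr11:98769643-98769742, minus strand: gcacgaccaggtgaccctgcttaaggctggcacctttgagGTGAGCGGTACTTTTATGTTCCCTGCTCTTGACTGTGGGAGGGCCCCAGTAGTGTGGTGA
Nr1d2 ENSMUST00000143308, chr14:18214814-18214913, minus strand: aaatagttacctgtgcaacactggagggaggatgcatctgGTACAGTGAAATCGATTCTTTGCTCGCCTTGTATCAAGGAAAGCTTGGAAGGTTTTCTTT
Dbp ENSMUST00000211748, chr7:45708200-45708299, plus strand: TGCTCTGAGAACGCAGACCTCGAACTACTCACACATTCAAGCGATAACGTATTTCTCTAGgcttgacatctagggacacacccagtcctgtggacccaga
The stretch that follows an exon began with GT at all 10 such boundaries of the clock rows, and the stretch that comes before an exon ended with AG at all 6, the bases with which introns usually begin and end. In the Per3 row ENSMUST00000128283 the unspliced stretch is 220 bases long and closes the row, and in the Dbp row it is 1156 bases long and opens it.

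Levels were compared between genes only per length, as CPM per kilobase of the row with the highest mean count. Dbp ENSMUST00000211748 was at 65.9 CPM per kilobase on average over the 12 libraries, with a range of 40.3 to 96.5. Nr1d2 ENSMUST00000143308 followed at 64.2, from 37.8 to 86.9. Cry2 ENSMUST00000125488 was at 38.4, from 32.7 to 43.1, and the ranges of neighbours in this order overlapped. Per3 ENSMUST00000138584 was at 27.4, from 22.5 to 33.4, just overlapping Cry2 and clear of Clock ENSMUST00000201052 at 14.1, from 10.9 to 17.4. Nr1d1 ENSMUST00000139220, from 6.09 to 16.8, and Arntl ENSMUST00000209495, from 6.23 to 13.3, overlapped with Clock and with each other. Cry1 ENSMUST00000214805 was at 1.8 and clear of the 7 genes above, and Per2, for the reason given below, was not ranked. The order did not follow the roles of the genes, with the nuclear receptor Nr1d2 at 64.2 and its relative Nr1d1 at 11.8. The ranked rows had from 4.0% (Arntl) to 79.9% (Nr1d2) of their bases in exons of protein-coding transcripts. The part of mRNA reads in this order was not tested.

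Clock, whose protein pairs with ARNTL, had 338, 317 and 229 summed counts in WT hippocampus libraries 1 to 3 and 224, 290 and 212 in 5×FAD hippocampus. The WT cortex libraries had 231, 261 and 178 counts and the 5×FAD cortex libraries 285, 243 and 262. Scaled to depth, this was 63.96 ± 10.5, 58.43 ± 7.63, 53.82 ± 2.75 and 62.55 ± 2.68 CPM in the same order of groups (mean ± SD, n = 3, as for all CPM values below). Clock was the second steadiest clock gene, with a highest level 1.42 times its lowest over the 12 libraries.

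Arntl, which codes for the partner of CLOCK, had 224, 180 and 203 counts in WT hippocampus, 114, 140 and 206 in 5×FAD hippocampus, 223, 214 and 236 in WT cortex and 189, 172 and 230 in 5×FAD cortex. The means were 44.14 ± 5.11, 37.23 ± 12.0, 55.34 ± 10.9 and 46.71 ± 5.23 CPM. In both regions the 5×FAD mean was the lower, and in both regions the groups overlapped.

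Among the Period and Cryptochrome genes only Per3 and Cry2 had enough counts to test. Per3, the Period gene that is least needed for rhythm, had 753, 710 and 618 counts in WT hippocampus, 823, 692 and 902 in 5×FAD hippocampus, 689, 853 and 591 in WT cortex and 812, 593 and 575 in 5×FAD cortex, with means of 150.9 ± 10.2, 196.0 ± 32.5, 171.6 ± 11.1 and 156.4 ± 24.8 CPM. Cry2, a cryptochrome that represses the activating pair, had 356, 341 and 370 counts in WT hippocampus, 302, 344 and 390 in 5×FAD hippocampus, 391, 436 and 330 in WT cortex and 412, 312 and 381 in 5×FAD cortex. Its means were 77.64 ± 5.94, 83.73 ± 11.1, 93.41 ± 1.24 and 87.1 ± 4.15 CPM, and it was the steadiest clock gene, with a highest level 1.33 times its lowest.

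The remaining Period and Cryptochrome genes were at or near the floor of the table. Cry1 had 2, 5 and 5 summed counts in WT hippocampus, 10, 9 and 8 in 5×FAD hippocampus, 7, 10 and 5 in WT cortex and 4, 11 and 9 in 5×FAD cortex, and did not pass the filter on low counts. Per2 was listed at exactly 1 count in each of the 12 libraries, as were 35 rows of the table in all, and its value was not interpreted.

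Nr1d1, a repressor of Arntl, had 22, 46 and 37 counts in WT hippocampus, 42, 38 and 27 in 5×FAD hippocampus, 42, 55 and 46 in WT cortex and 38, 32 and 40 in 5×FAD cortex. The means were 7.639 ± 2.63, 8.644 ± 1.91, 11.63 ± 1.64 and 8.688 ± 0.357 CPM, and with a mean of 38.8 counts it had the fewest counts of the genes tested. Nr1d2, its close relative, had 426, 294 and 441 counts in WT hippocampus, 374, 315 and 493 in 5×FAD hippocampus, 497, 415 and 456 in WT cortex and 570, 536 and 585 in 5×FAD cortex. Its means were 84.68 ± 19.7, 95.97 ± 24.6, 112.2 ± 20.8 and 134.2 ± 8.25 CPM, so that both cortex groups had higher means than both hippocampus groups.

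Dbp, a PAR bZIP transcription factor at the output of the clock, had 439, 350 and 407 counts in WT hippocampus, 441, 383 and 557 in 5×FAD hippocampus, 653, 464 and 249 in WT cortex and 748, 437 and 720 in 5×FAD cortex. The means were 87.0 ± 10.8, 112.1 ± 24.6, 108.3 ± 41.9 and 148.8 ± 27.9 CPM. WT cortex alone spanned 71.13 to 153.6 CPM. Over the 12 libraries the SD of its log2 CPM was 0.423, the highest of the 7 genes and against 0.141 for Cry2, and the SD within groups was 0.364. By the highest over the lowest level, Nr1d1 at 2.76 and Arntl at 2.36 were above Dbp at 2.33.

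**Figure D2:**
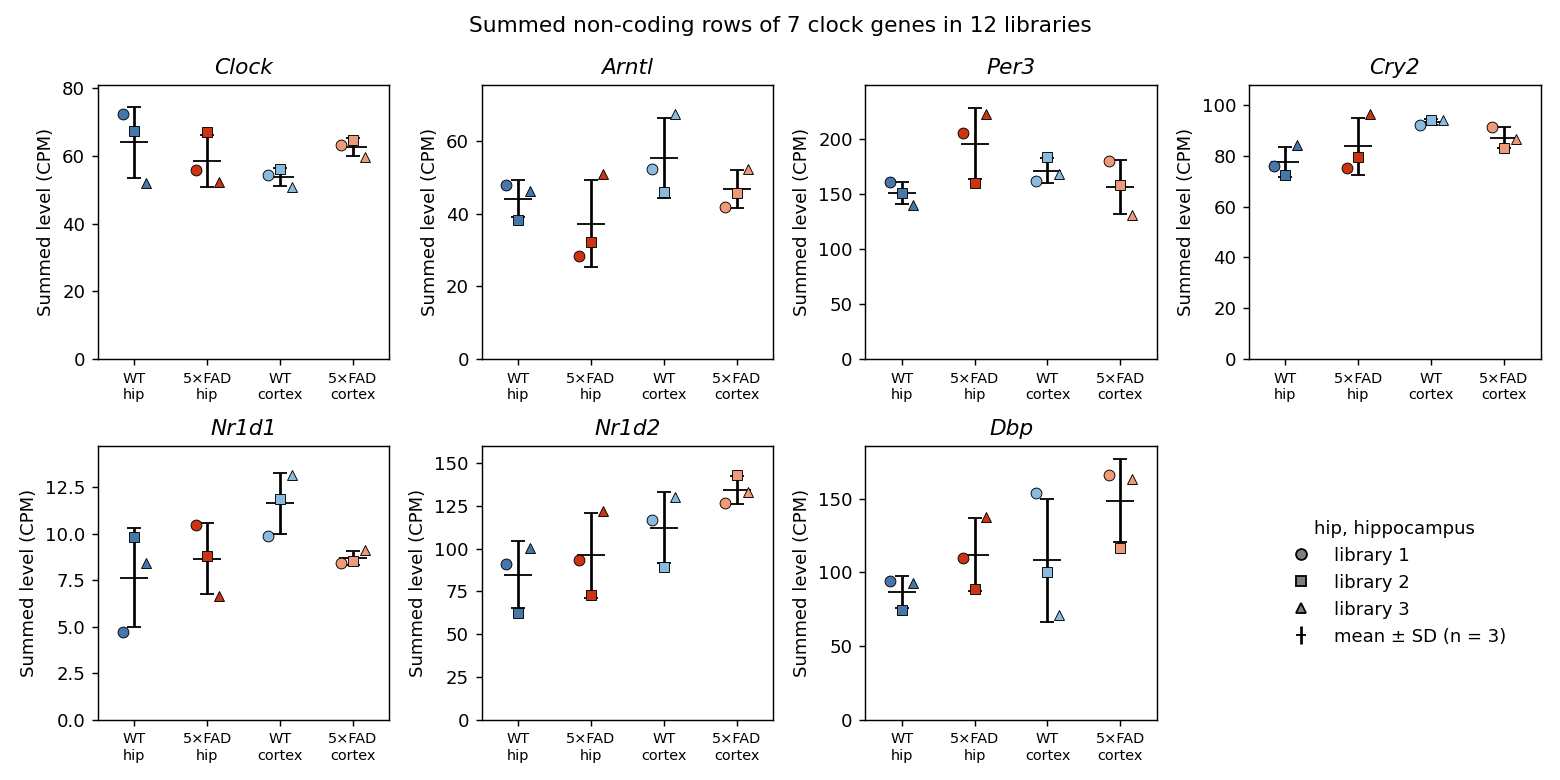
Summed level in CPM (vertical axes, from 0) of the 7 clock genes that could be tested, in the 4 groups on the horizontal axes, where each point is a library, its shape the library number, and the bars are mean ± SD of 3 libraries. For Arntl and Dbp the groups overlap in every comparison of genotype or region, while Clock, Per3, Cry2, Nr1d1 and Nr1d2 are apart in some of them. The 3 libraries of WT cortex are spread from 71.13 to 153.6 CPM for Dbp.

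The first comparison asked whether these transcripts differ between 5×FAD and WT in the hippocampus. None of the 7 gene sums and none of the 12 rows tested passed an adjusted p of 0.05 (edgeR quasi-likelihood test, Benjamini-Hochberg over all features), where 0.0529% of all gene sums and 0.0183% of all rows did, and DESeq2 called 0 of them as well. At an unadjusted p under 0.05 there were 0 of 7 sums against 8.68% of all sums and 0 of 12 rows against 7.58% of all rows. The groups were apart for 0 of the 7 sums, against 16.5% of all sums. The repressor Per3 had the largest difference, with a log2 fold change of 0.40 (SE 0.18, edgeR adjusted p = 0.587) and a 95% interval from -0.02 to 0.83. Dbp followed at 0.39 (95% interval -0.11 to 0.89). The activators Clock and Arntl were at -0.10 and -0.22, and Cry2, Nr1d1 and Nr1d2 at 0.14, 0.21 and 0.21. The median of the 7 was 0.205, beside 0.03 over all gene sums. With only the libraries in which Y-linked transcripts were found, which leaves 1 5×FAD library whose spread is assumed to be that of WT, 0 sums and 0 rows were called. Arntl and Nr1d1 then changed sign to 0.226 and -0.172, and Clock was at -0.267, Per3 at 0.583, Cry2 at 0.332, Nr1d2 at 0.544 and Dbp at 0.681.

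In the cortex, too, none of the 7 sums and none of the 12 rows passed, where 0.0175% of all sums and 0.0545% of all rows did, and DESeq2 called 0. At an unadjusted p under 0.05 there were 0 sums against 6.68% of all sums, and 1 row against 5.34% of all rows. The groups did not overlap for 3 of the 7 sums, Clock, Cry2 and Nr1d1, against 13.1% of all sums. Clock was at 54.35, 56.26 and 50.84 CPM in WT and at 63.27, 64.8 and 59.58 CPM in 5×FAD, with every 5×FAD library above every WT library and a log2 fold change of 0.21 (SE 0.13, edgeR adjusted p = 0.801). Nr1d1 lay lower in every 5×FAD library, at 8.436 to 9.097 CPM against 9.881 to 13.14 CPM, with a log2 fold change of -0.42 (SE 0.22, edgeR adjusted p = 0.775). Cry2 differed by only -0.10 on that scale, Arntl by -0.25 and Per3 by -0.14, while Nr1d2 and Dbp were at 0.26 and 0.45. The widest 95% interval, that of Dbp, ran from -0.25 to 1.15, so a doubling of Dbp in the cortex lay within it. The median was -0.104, beside -0.001 over all sums. Some of these values moved by more than 1.5 times with single libraries. When each was left out in turn, Per3 ranged from -0.256 to -0.026, Arntl from -0.36 to -0.082, Cry2 from -0.146 to -0.068, Nr1d2 from 0.117 to 0.374 and Dbp from 0.226 to 0.796. With only the libraries that held Y-linked transcripts, 0 sums and 0 rows were called, with Clock at 0.143, Arntl at -0.083, Per3 at -0.395, Cry2 at -0.112, Nr1d1 at -0.354, Nr1d2 at 0.243 and Dbp at 0.592.

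The row behind the unadjusted count was Clock ENSMUST00000202857, 18 exons of which the last runs on into intron. Its counts were 46, 62 and 36 for the WT cortex and 71, 62 and 70 for the 5×FAD cortex, or 11.61 ± 1.71 and 16.31 ± 0.503 CPM, and every 5×FAD library was above every WT library. The log2 fold change was 0.49 (SE 0.20, edgeR adjusted p = 0.912). The WT hippocampus libraries had 96, 77 and 41 counts of this row and the 5×FAD hippocampus libraries 78, 103 and 41, and the groups overlapped. There, leaving out the libraries without Y-linked transcripts moved its log2 fold change from 0.21 to -0.612.

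The second question was whether the 2 regions differ. In WT, none of the 7 sums and none of the 12 rows passed, although this comparison called by far the most features of the table, 3.5% of all sums and 0.986% of all rows. DESeq2 called 0 of the clock features. At an unadjusted p under 0.05 there were 0 sums against 17.3% of all sums and 0 rows against 12.8% of all rows, and the groups did not overlap for 3 sums, Per3, Cry2 and Nr1d1, against 24.9%. The values were below 0, that is lower in the hippocampus, for 6 of the 7 sums, with Clock at 0.23 the exception, and the median was -0.332 beside -0.021 over all sums. Cry2 was at 72.6 to 84.18 CPM in the hippocampus and 91.99 to 94.26 CPM in the cortex, a log2 fold change of -0.29 (SE 0.12, 95% interval -0.58 to 0.01, edgeR adjusted p = 0.298). Nr1d1 was at -0.62 (SE 0.31, edgeR adjusted p = 0.371) and Nr1d2 at -0.42 (SE 0.23, edgeR adjusted p = 0.415).

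In 5×FAD, again none of the 7 sums passed, where 0.193% of all sums did, and none of the 12 rows, where 0.0182% did. At an unadjusted p under 0.05 there were 0 sums against 12.5% of all sums and 1 row against 9.38% of all rows. DESeq2 called 0 of these sums and 1 of these rows, beside 336 of all 11404 sums and 366 of all 22016 rows. The groups did not overlap for 1 sum, Nr1d2, against 19.2% of all sums. Nr1d2 was at 93.36, 72.77 and 121.8 CPM in the hippocampus and at 126.5, 142.9 and 133.0 CPM in the cortex, with every cortex library the higher, and its log2 fold change was -0.49 (SE 0.23, edgeR adjusted p = 0.447). Dbp and Arntl were at -0.41 and -0.33, and Per3, at 0.32, was the only sum above 0. The median was -0.102, beside 0.012 over all sums. All values of this comparison rest on the same 6 libraries as the 5×FAD arms of the genotype comparisons, and those of the WT regions on the WT arms, so the comparisons are not independent of each other.

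**Figure D3:**
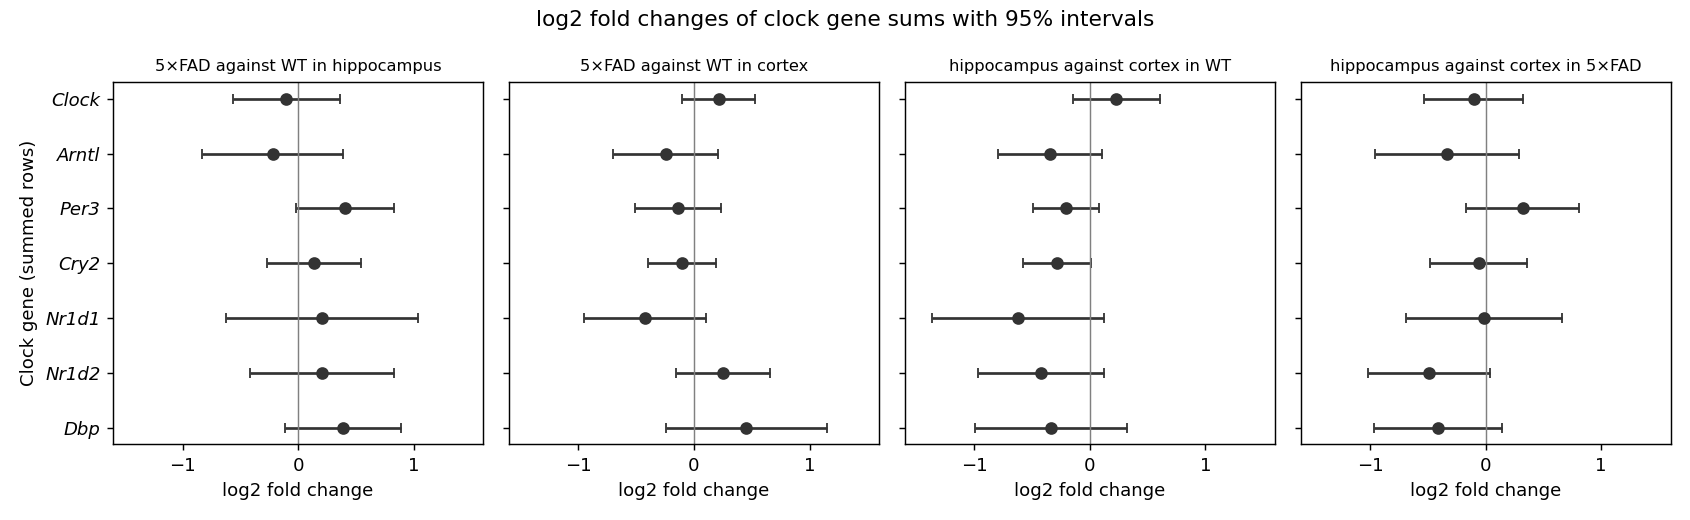
log2 fold changes (horizontal axes) of the 7 clock gene sums (vertical axis) in the 4 comparisons, where points are edgeR estimates, bars are 95% intervals and the grey line is 0. Every interval includes 0, and Per3 in the hippocampus comes nearest to leaving it upwards, with an interval from -0.02 to 0.83.

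The row past the unadjusted threshold in 5×FAD was Per3 ENSMUST00000128283, whose 12 exons end in the 220 intron bases shown above. It had 282, 147 and 239 counts in 5×FAD hippocampus and 73, 65 and 90 in 5×FAD cortex, and 193, 155 and 71 in WT hippocampus and 72, 178 and 143 in WT cortex. In 5×FAD every hippocampus library was above every cortex library, whereas the WT regions overlapped. The level was 54.5 ± 18.4 CPM in 5×FAD hippocampus and 18.27 ± 2.21 CPM in 5×FAD cortex, a log2 fold change of 1.57 (SE 0.31, 95% interval 0.82 to 2.32, edgeR adjusted p = 0.194). DESeq2 called it, with an adjusted p of 0.00605, as 1 of the 366 rows that DESeq2 called in this comparison. Over the 14 alternatives the log2 fold change stayed between 1.353 and 1.821 with adjusted p from 0.00605 to 0.529. The same contrast in WT was -0.10 (SE 0.45, edgeR adjusted p = 0.96). Against WT, the row was at 0.85 in 5×FAD hippocampus (edgeR adjusted p = 0.684) and at -0.82 in 5×FAD cortex (edgeR adjusted p = 0.912).

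The other large Per3 row, ENSMUST00000138584, did not share this pattern. It had 529, 538 and 655 counts in 5×FAD hippocampus and 731, 521 and 480 in 5×FAD cortex, with 139.6 ± 19.5 and 138.8 ± 27.0 CPM, and the groups overlapped. Its log2 fold change between the regions in 5×FAD was 0.01 (95% interval -0.55 to 0.56, edgeR adjusted p = 0.996). As a share of this row's counts, ENSMUST00000128283 ranged from 27.3% to 53.3% in 5×FAD hippocampus and from 9.99% to 18.8% in 5×FAD cortex, with 13.1% to 34.7% and 11.8% to 32.4% in WT hippocampus and cortex. Since 89.7% of the bases of ENSMUST00000128283 lie in exons of protein-coding transcripts, its counts could not be told from those of spliced Per3 mRNA.

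**Figure D4:**
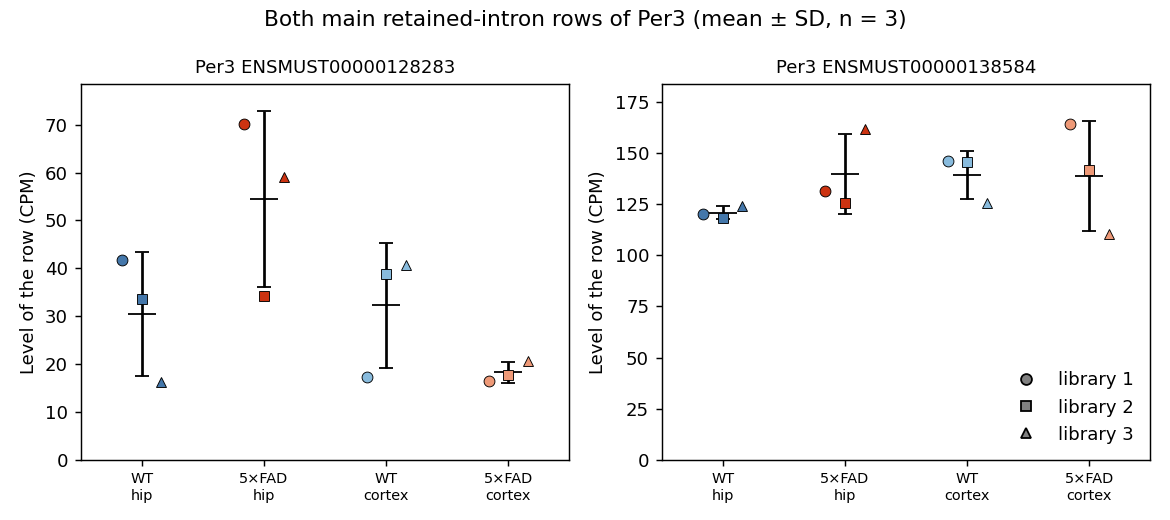
Level in CPM (vertical axes, from 0) of both main Per3 rows in the 4 groups, where each point is a library and the bars are mean ± SD of 3 libraries. On the left, the 5×FAD hippocampus libraries of ENSMUST00000128283 sit between 34.26 and 70.15 CPM, above the 5×FAD cortex libraries at 16.4 to 20.7 CPM, and on the right ENSMUST00000138584 shows no such gap.

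An interaction term over all 12 libraries tested whether hippocampus and cortex differ in their genotype effect. It was called for none of the 7 sums, where 0.0% of the 12109 sums tested were called by edgeR, 848 or 7.0% had an unadjusted p under 0.05 and DESeq2 called 22, none of them a clock gene. Of the 12 clock rows none was called, beside 0.00812% of all rows, and 1 had an unadjusted p under 0.05, beside 6.89% of all rows. That row was again Per3 ENSMUST00000128283, at 1.66 (SE 0.59, 95% interval 0.36 to 2.95, edgeR adjusted p = 0.661). The summed Per3 rows gave 0.51 (SE 0.23, edgeR adjusted p = 0.703) and were the 1 sum of 7 with an unadjusted p under 0.05. Clock was at -0.35, Nr1d1 at 0.60 and Cry2 at 0.21, while Arntl, Nr1d2 and Dbp lay within 0.10 of 0.

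The intervals set what these data can say. For the 7 sums the half-widths of the 95% intervals ran from 0.41 to 0.83 in the hippocampal genotype comparison and from 0.29 to 0.70 in the cortical one. For the 12 rows they ran from 0.44 to 1.02 and from 0.33 to 0.99. These intervals are not adjusted for the number of features, so a call needed a larger difference than they show. The absence of a call does not show equal levels, least of all for rows, whose changes in simulated counts were seldom or never found.

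Dbp, as the clock gene with the highest SD and a mean of at least 50 counts, was matched against all 12109 gene sums by the Pearson correlation of log2 CPM over the 12 libraries. The closest were Sept4, a septin, at 0.878, Gm26695 at 0.865, Etv4, an ETS family transcription factor, at 0.859, the assembled locus MSTRG.12741 at 0.833 and Adprm at 0.83. These values describe 12 libraries that include both regions and genotypes, and the closest of so many features are high by selection.

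Of 29 other genes of the clock and its regulators, 20 had rows, and Ciart, Nfil3, Fbxl21, Btrc, Wee1, Tipin, Ppargc1a, Prkaa1 and Prkaa2 had none. Between 17 and 19 of their sums were tested in each comparison and edgeR called 0 in all 5. At an unadjusted p under 0.05 there were 2 of 17 in the hippocampal and 3 of 18 in the cortical genotype comparison, 3 of 17 in each regional comparison and 4 of 19 for the interaction, beside 8.68%, 6.68%, 17.3% (WT), 12.5% (5×FAD) and 7.0% of all sums. Hlf and Bhlhe41 are described because of their values, so they were chosen after these were seen.

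Hlf, a relative of Dbp in the PAR bZIP family, had 79, 151 and 55 counts in WT cortex and 587, 132 and 204 in 5×FAD cortex, or 22.28 ± 9.01 and 70.63 ± 52.0 CPM. Most of this gap came from 5×FAD cortex 1 and from the row ENSMUST00000107881, at 11.81 ± 9.07 CPM in WT cortex and 54.21 ± 50.2 CPM in 5×FAD cortex. The log2 fold change was 1.66 (SE 0.54, edgeR adjusted p = 0.723) with that library and 0.86 without it. With only the libraries that held Y-linked transcripts, where 5×FAD cortex 3 is the only 5×FAD library, it was 1.05. Between the regions of 5×FAD the hippocampus was lower by a log2 fold change of -2.08 (SE 0.52, edgeR adjusted p = 0.181), which DESeq2 and the edgeR fit of all 12 libraries called at adjusted p of 0.00361 and 0.047, in a range of 0.00361 to 0.363 over the alternatives. Without 5×FAD cortex 1 the log2 fold change was -1.289. In this comparison DESeq2 called 336 of 11404 sums and the edgeR fit of all 12 libraries 262 of 12109. Bhlhe41, a repressor of the CLOCK and ARNTL pair, had 17, 18 and 24 counts in WT hippocampus and 5, 3 and 10 in 5×FAD hippocampus, at a log2 fold change of -1.51 (SE 0.51, edgeR adjusted p = 0.527), and 0.64 in the cortex (edgeR adjusted p = 0.783). The hippocampal value ranged from -2.102 to -1.173 when each library was left out in turn, and was -0.774 with only the libraries that held Y-linked transcripts, where 5×FAD hippocampus 3, with 10 counts, is the only 5×FAD library.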

How the data were processed

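Raw counts per transcript, not normalized, were deposited by the authors for 12 libraries of hippocampus and cortex from WT and 5×FAD mice. Per the labels, total RNA was depleted of ribosomal RNA and made into stranded paired-end libraries, and the submitters' processing notes name Trimmomatic 0.36 and edgeR. The aligner, counter, genome build and annotation are not given in the sources used here, nor is it known if reads were counted singly or estimated and rounded, which would decide how reads on shared exons were split between rows. All 12 columns were used and 0 were left out. Group and library number came from the sample titles and the code in brackets there.

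Rows were matched to GENCODE M21 (GRCm38), in which 225 Ensembl rows were not found, and tested singly and summed per gene. Tests used edgeR 4.0.16 in R 4.3.3 (filterByExpr, TMM, glmQLFit, glmQLFTest, Benjamini-Hochberg at 0.05) on the 6 libraries of each comparison, or all 12 for the interaction. The standard error is the log2 fold change divided by the square root of F. CPM are counts scaled to the TMM-adjusted library size, except for the marker lists, which were scaled to the total counts. The log2 CPM adds 0.5 counts. Alternatives were DESeq2 1.42.0, other scaling and filters, Ensembl rows only, all 12 libraries in one fit, a replicate block, only libraries with Y-linked transcripts, sums without all-or-none rows, and leaving out each library. The script was tested on simulated counts, with dispersions drawn both per feature and from the trend: 4-fold changes of gene sums were often found, 2-fold changes were mostly missed, and changes of single rows were seldom or, with per-feature dispersions, never found. The trend was added after the per-feature run had found no changed row.

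Every clock gene is named, with its row of highest mean count and any row that is called, or whose groups do not overlap at an unadjusted p under 0.05. Clock genes and lists were chosen with earlier results of these data known. The values of 1 gene on the list of other clock genes are not reported here, though the counts over that list include it.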

Additional observations from a re-analysis of the deposited data

How the results depend on the processing

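Over 161 alternatives for the counts of clock features called, 160 gave 0 as the main fits did. The other was DESeq2 for the regions of 5×FAD, with 1 row called (Per3 ENSMUST00000128283). With the library number as a replicate block, 0 clock features were called in every comparison, and all gene sums called between the WT regions went from 400 to 5 and rows from 217 to 0. The numbers are not known to mark the same mouse. The deviations of same-numbered libraries correlated at 0.091, 0.099 and 0.264 between the regions of 5×FAD. Libraries of different number lay there between -0.166 and 0.083. Only library 3 of each 5×FAD region held Y-linked transcripts, so it may be the same mouse in both. In WT the same-number values were 0.019, -0.023 and -0.025, beside -0.043 to 0.06 for different numbers. Across genotypes the same-number values lay between -0.069 and 0.015. The main fits were left unpaired. DESeq2 gave the most calls over all features, in the order hippocampal genotype, cortical genotype, WT regions, 5×FAD regions and interaction: 127, 102, 743, 366 and 108 rows in place of 4, 12, 217, 4 and 2, and 84, 53, 761, 336 and 22 sums in place of 6, 2, 400, 22 and 0. The lowest counts, leaving out a library included, were 0 for rows in all 5 comparisons and 0, 0, 5, 0 and 0 for sums, the hippocampal genotype count reaching 0 without WT hippocampus replicate 1. Leaving out 1 library gave 7 to 63 rows and 116 to 300 sums between the WT regions.

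Changes of sign occurred among log2 fold changes that were not called, and their cause was not tested. With only libraries that held Y-linked transcripts, the hippocampal genotype value was -0.612 for Clock ENSMUST00000202857, -0.172 for Nr1d1 and 0.226 for Arntl, and the interaction 0.28 for Nr1d2, 0.287 for Arntl and 0.069 for Dbp. The Arntl interaction, -0.002 in the main fit, was 0.007 with DESeq2 size factors, 0.056 with library size alone, 0.005 with DESeq2, 0.012 without a filter, 0.01 with at least 10 counts in every library and 0.014 without all-or-none rows. Leaving out 1 library at a time, the hippocampal genotype value ranged from -0.061 to 0.492 for Clock ENSMUST00000202857, -0.055 to 0.415 for Nr1d1 and -0.005 to 0.368 for Nr1d2, and with no change of sign from -0.243 to -0.015 for Clock, -0.514 to -0.063 for Arntl, 0.02 to 0.202 for Cry2, 0.3 to 0.53 for Per3 and 0.214 to 0.533 for Dbp. Between the WT regions it ranged from -0.399 to 0.207 for Per3 ENSMUST00000128283 and -0.552 to 0.002 for Dbp, and between the 5×FAD regions from -0.143 to 0.411 for Clock ENSMUST00000202857, -0.168 to 0.141 for Nr1d1 and -0.176 to 0.014 for Cry2. The interaction ranged from -0.254 to 0.087 for Nr1d2, -0.264 to 0.167 for Arntl and -0.408 to 0.132 for Dbp.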
